A study of Homo sapiens with 6 samples.

Results

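The genes described here encode 10 proteoglycans of the cell surface and of the extracellular matrix: the syndecans SDC1, SDC2 and SDC4, the glypicans GPC1, GPC4 and GPC6, and the matrix proteins VCAN (versican), BGN (biglycan), HSPG2 (perlecan) and AGRN (agrin). They were chosen by name from the 61806 genes of the deposited table, with earlier results of these data known but with no threshold on a measured value. A filter on low counts kept 8 of the 10 for testing. BGN had no count in any library and VCAN had at most 6 counts in a library, and both are given below as values without a test.

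The study depleted HMGA2, an architectural chromatin protein that binds A/T-rich DNA, in MDA-MB-231 cells, an established human line of triple-negative breast cancer, and sequenced RNA from 6 libraries. All 3 lines derive from MDA-MB-231 cells. The shNC line was the control, and the lines shHMGA2-1 and shHMGA2-2 each carried a different short hairpin RNA against HMGA2, with 2 libraries in each of the 3 lines. The hairpins were delivered by TRC2-pLKO lentivirus under puromycin selection, and the study's methods describe the stable knockdown lines as expanded from single clones. How the shNC line was grown out is not given in the sources used here, so hairpin, clone and line cannot be told apart. The sample titles gave the groups. Control library names say WT in place of shNC, and those of the shHMGA2-1 line carry SH2. Nothing in the labels says that the 2 libraries of a line came from separate cultures, so the p-values below measure only the spread between these libraries, which may be technical.

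Proteoglycans are core proteins to which long sulfated sugar chains, the glycosaminoglycans, are attached. Syndecans span the plasma membrane and glypicans are held to it by a lipid anchor. The heparan sulfate chains of both bind growth factors and morphogens such as FGF and Wnt proteins and present them to their receptors. Perlecan and agrin carry heparan sulfate into basement membranes, whereas versican and biglycan carry chondroitin or dermatan sulfate and belong to the matrix laid down largely by stromal cells. In breast carcinoma cells the surface proteoglycans are known as co-receptors in adhesion and growth factor signaling.

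HMGA2 itself was lower in both knockdown lines. Its counts were 2126 and 2161 under shNC, 858 and 989 under shHMGA2-1, and 435 and 482 under shHMGA2-2, so the 3 lines did not overlap. The log2 fold change against shNC was -1.29 ± 0.0867 (SE) in shHMGA2-1 (adjusted p = 2.17e-11) and -2.31 ± 0.0927 in shHMGA2-2 (adjusted p = 2.11e-16) by the quasi-likelihood test of edgeR, with p-values adjusted by the Benjamini-Hochberg method across 16110 tested genes. Library totals ran from 16461178 to 17167293 counts. A floor of 3 counts equalled 0.175 to 0.182 CPM (counts scaled to the size of the library), and floors and counting intervals cover counting error only. Summed CPM of 6 genes known to be high in MDA-MB-231 cells was 5334 to 5456 in shNC, 4649 to 4655 in shHMGA2-1 and 4429 to 4534 in shHMGA2-2, although one of them, TGFBI, had only 29 and 36 counts in the control. The sum hides opposite changes, since in shHMGA2-2 EGFR (-1.54 on the log2 scale) was at least 2-fold lower and TGFBI (2.70) at least 2-fold higher. Summed CPM of 12 luminal epithelial markers was 29.9 to 38.0 over the 6 libraries, but single markers went opposite ways, and in shHMGA2-2 5 of the 6 tested changed at least 2-fold, FOXA1 (-5.11 on the log2 scale) and CLDN4 (-2.57) lower and CLDN3 (3.84), GATA3 (2.47) and CLDN7 (1.23) higher. In shHMGA2-1, CLDN4 (-2.83) and CLDN3 (2.30) did. CLDN3 had 0 and 5 counts under shNC, and FOXA1 had 5 and 1 under shHMGA2-2. Summed CPM of 6 endothelial markers was 2.83 to 4.49, and 1 of the 2 tested, PECAM1, fell in both knockdown lines, from 14 and 11 counts under shNC to 2 and 0 in each. Among 8 leukocyte markers, 7 were at or under the floor in all libraries. Summed CPM of 8 fibroblast markers was 4.85 to 6.95 in shNC, 11.7 to 14.3 in shHMGA2-1 and 8.53 to 8.61 in shHMGA2-2. Of these 8 markers, 5 were at or under the floor in all libraries, PDGFRA and POSTN with no count at all. In shHMGA2-1 COL1A1 was higher (1.60) and PDGFRB lower (-1.57), and in shHMGA2-2 PDGFRB was higher (1.10). The part of these marker differences in the proteoglycan results was not tested. In bulk RNA, fewer cells of a type and less RNA per cell cannot be told apart.

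Levels of different genes are compared here as FPKM, a level scaled to exonic length and to the counted reads of the library. Among the 10 members, the surface syndecans and agrin were the leading transcripts in control cells. Proteoglycan genes outside the 10 could stand higher, such as NRP1 at 89.3 and 92.5 FPKM under shNC. SDC4 stood at 54.6 and 52.4 FPKM, SDC1 at 46.5 and 45.6, AGRN at 19.6 and 20.4 and SDC2 at 15.7 and 14.2. HSPG2 followed at 5.21 and 4.92 FPKM, GPC1 at 2.38 and 2.75, GPC4 at 1.78 and 1.90 and GPC6 at 0.93 and 1.02. The glypicans were therefore well below the syndecans, and no neighbours in this control order overlapped. VCAN stood at 0.02 FPKM in both libraries and BGN was listed at 0. In shHMGA2-1 the order was the same except that SDC4 and SDC1 overlapped and GPC4 lay above GPC1. In shHMGA2-2, SDC4 stood alone at the top, AGRN and SDC1 overlapped, and so did SDC2 and GPC1.

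**Figure D1:**
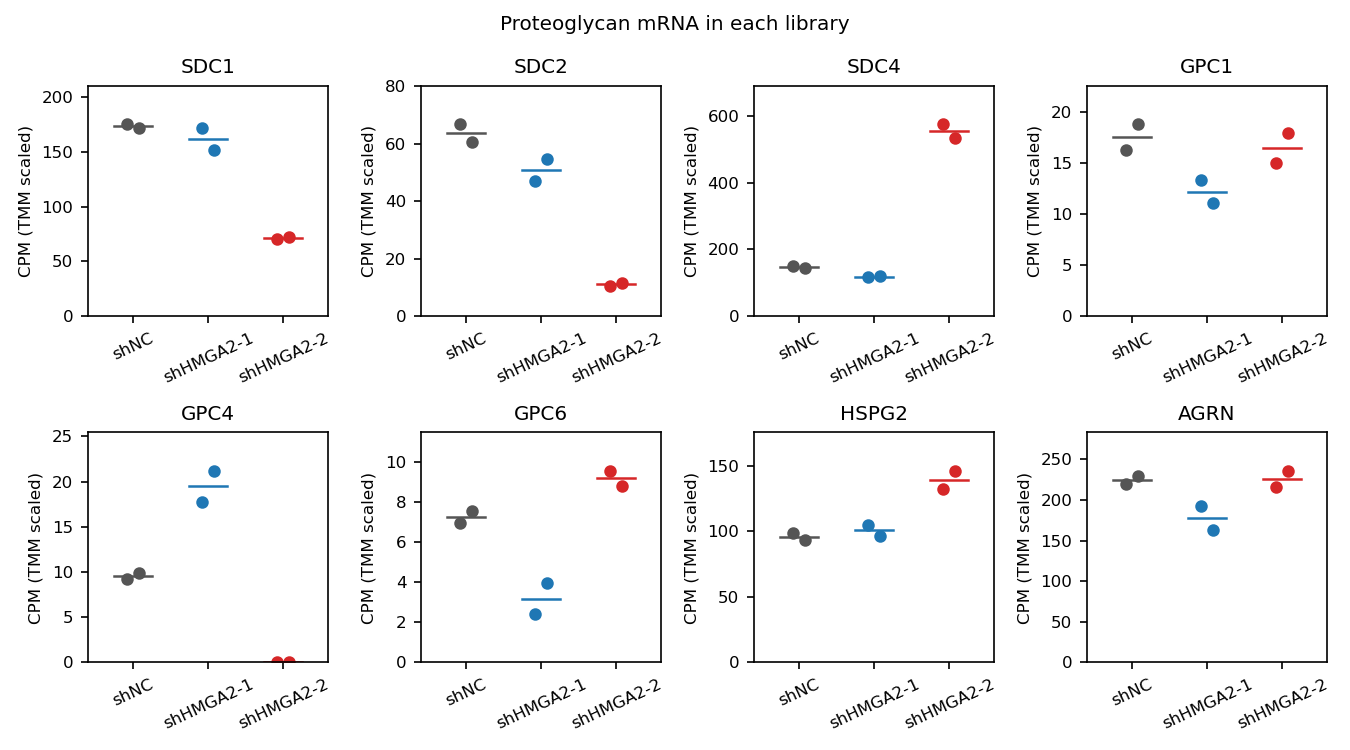
CPM scaled by TMM factors (y axis, linear from 0, a separate scale for each gene) of the 8 tested proteoglycan genes in shNC, shHMGA2-1 and shHMGA2-2 (x axis); points are libraries, 2 in each line, and horizontal lines are means. SDC4 rises to 575 and 535 CPM in shHMGA2-2 alone, and GPC4 is at 0 and 0.0572 CPM there while it is highest in shHMGA2-1.

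HMGA2 contacts DNA through AT-hooks that sit in the minor groove of A/T-rich stretches, so the letters just before the start site of 3 members are shown: SDC4, the member with the highest rise, GPC4, which was near 0 in one knockdown line and higher than control in the other, and GPC6, whose promoter was the poorest in G and C among the members' entries. They are the 250 bases before the start site, 5′ to 3′ along the gene, from RefSeq on GRCh38.p14. SDC4 lies on the minus strand at chr20:45348425-45348674, GPC4 on the minus strand at chrX:133415490-133415739 and GPC6 on the plus strand at chr13:93226557-93226806. Capitals mark runs of 6 or more letters that are each A or T.
SDC4: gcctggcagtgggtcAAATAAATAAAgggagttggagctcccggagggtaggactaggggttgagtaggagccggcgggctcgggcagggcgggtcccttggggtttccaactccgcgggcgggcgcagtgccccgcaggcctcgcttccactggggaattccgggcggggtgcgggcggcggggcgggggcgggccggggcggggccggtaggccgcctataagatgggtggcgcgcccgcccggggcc
GPC4: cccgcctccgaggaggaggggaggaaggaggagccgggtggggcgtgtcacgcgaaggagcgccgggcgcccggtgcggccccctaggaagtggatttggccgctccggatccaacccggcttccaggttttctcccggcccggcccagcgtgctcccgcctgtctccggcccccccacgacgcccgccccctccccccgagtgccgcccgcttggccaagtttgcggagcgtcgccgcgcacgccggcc
GPC6: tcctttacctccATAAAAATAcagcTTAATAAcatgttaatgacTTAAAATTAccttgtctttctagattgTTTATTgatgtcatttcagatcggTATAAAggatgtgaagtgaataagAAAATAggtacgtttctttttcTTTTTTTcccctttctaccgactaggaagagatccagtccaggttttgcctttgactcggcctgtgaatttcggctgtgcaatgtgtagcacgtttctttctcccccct
The SDC4 sequence held 1 such run, of 11 letters, the GPC4 sequence held none, and the GPC6 sequence held 7, the longest of 9 letters. G and C made up 73.6% of the letters for SDC4, 76.0% for GPC4 and 37.6% for GPC6, against a median of 58% over the 35116 promoters of the same table. Of the 8 members with a RefSeq entry used, 5 had an A/T run of this length in at least 1 listed promoter, and 58.7% of all 35116 promoters had one. The letters GGGCGG, the core of the GC box and a word that cannot overlap an A/T run, were counted on both strands. They occurred 8 times before SDC4, 2 times before GPC4 and not at all before GPC6. Of the 8 members, 7 held them in at least 1 listed promoter, against 42.6% of all promoters. These are matches of letters in a 250 base window, and binding of HMGA2 was not measured in these libraries.

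Among the syndecans, SDC1 and SDC2 were lower and SDC4 was higher in shHMGA2-2, so that 1 member came to dominate the family. SDC4 (chr20:45325288-45348424, minus strand), a widely expressed syndecan that works with integrins at focal adhesions, had 2421 and 2324 counts under shNC, 2018 and 2014 under shHMGA2-1, and 9749 and 9338 under shHMGA2-2. The shHMGA2-2 libraries were far above the other 4, and the shHMGA2-1 libraries were the lowest. SDC4 rose 3.81-fold in shHMGA2-2 (log2 fold change 1.93 ± 0.0664, adjusted p = 1.15e-17) and fell by 0.31 on the log2 scale in shHMGA2-1 (SE 0.0671, adjusted p = 0.000737). The direct contrast of the knockdown lines gave 2.24 ± 0.0673 (adjusted p = 1.44e-18). An unnamed gene on the same strand overlaps SDC4 and had 3 to 20 counts, too few to bear on these values.

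SDC1 (chr2:20200797-20225433, minus strand), the main syndecan of epithelial cells, had 2854 and 2799 counts under shNC, 2981 and 2587 under shHMGA2-1, and 1193 and 1260 under shHMGA2-2. The shHMGA2-2 libraries were lowest, with no overlap. SDC1 was 2.44-fold lower in shHMGA2-2 than in shNC (log2 fold change -1.28 ± 0.0757, adjusted p = 3.46e-13). In shHMGA2-1 its log2 difference from shNC was -0.10 ± 0.0725 and did not pass the test (adjusted p = 0.310), but it passed without shHMGA2-1 replicate 1, at -0.19 (adjusted p = 0.0229). The direct contrast of the knockdown lines gave -1.18 ± 0.0757 (adjusted p = 2.69e-12).

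SDC2 (chr8:96493813-96611790, plus strand), a syndecan typical of mesenchymal cells, fell the most among the 3. Its counts were 1087 and 986 under shNC, 819 and 927 under shHMGA2-1, and 175 and 202 under shHMGA2-2. The lines were ordered shNC, shHMGA2-1, shHMGA2-2 from high to low, again with no overlap of CPM. SDC2 was 5.81-fold lower in shHMGA2-2 (log2 fold change -2.54 ± 0.113, adjusted p = 1.45e-15). The smaller fall in shHMGA2-1, by 0.33 on the log2 scale (SE 0.0959, adjusted p = 0.0106), no longer passed without shNC replicate 1 (adjusted p = 0.180) or without shHMGA2-1 replicate 1 (adjusted p = 0.0672). Between the knockdown lines the log2 difference was -2.21 ± 0.114 (adjusted p = 4.04e-14).

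As a family, the 3 syndecans summed to 117 and 112 FPKM under shNC, 105 and 100 under shHMGA2-1, and 249 and 239 under shHMGA2-2. The sum was higher in shHMGA2-2 although 2 of its 3 parts were lower. SDC4 supplied 46.7% of the sum in each shNC library, 43.0% and 45.0% under shHMGA2-1, and 90.9% and 90.0% under shHMGA2-2. SDC2 supplied 13.4% and 12.7% under shNC and 1.04% and 1.24% under shHMGA2-2. The remaining syndecan, SDC3, a neuronal family member outside the chosen 10, fell by 0.68 on the log2 scale in shHMGA2-2 (SE 0.103, adjusted p = 3.97e-06) and by 0.27 in shHMGA2-1 (SE 0.101, adjusted p = 0.0449).

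**Figure D2:**
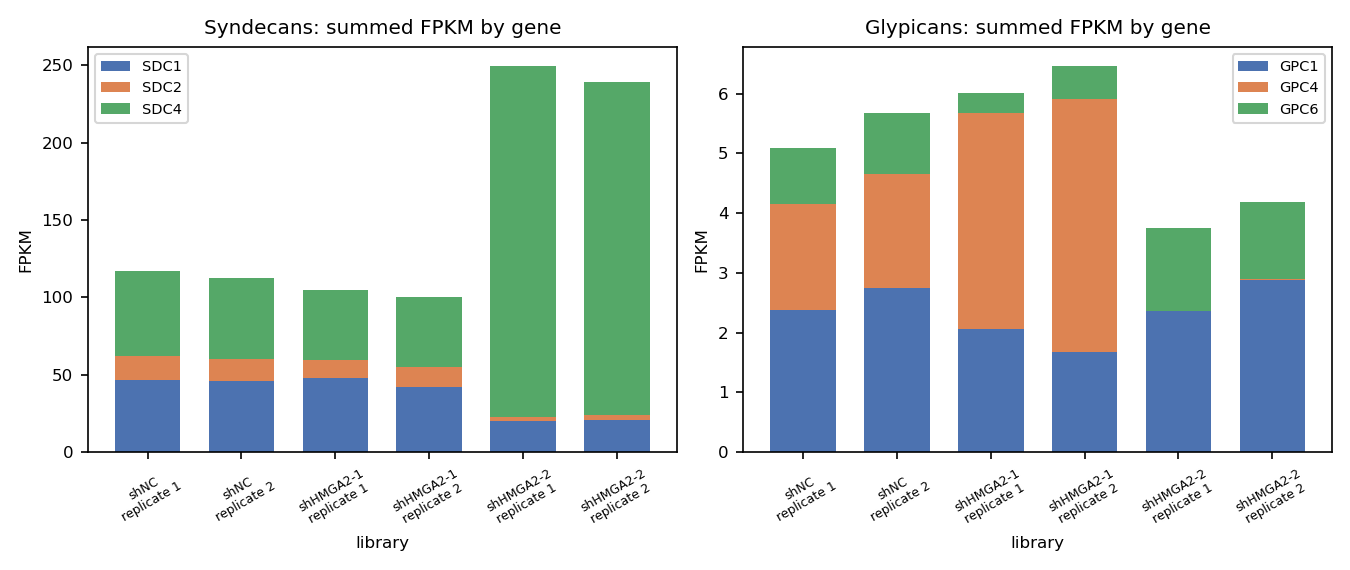
Stacked bars of the FPKM (y axes, linear from 0) of the 3 syndecans (left) and the 3 glypicans (right) in each of the 6 libraries (x axis); colors stand for genes. SDC4 makes up 90.9% and 90.0% of the syndecan sum in shHMGA2-2 against 46.7% in both shNC libraries, and GPC4 makes up 60.1% and 65.6% of the glypican sum in shHMGA2-1 but 0% and 0.239% in shHMGA2-2.

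Among the glypicans, GPC4 moved in opposite directions in the knockdown lines, as SDC4 did, but was higher in shHMGA2-1 and lower in shHMGA2-2. GPC4 (chrX:133300103-133415489, minus strand), a glypican that carries morphogens at the cell surface, had 150 and 160 counts under shNC, 308 and 360 under shHMGA2-1, and 0 and 1 under shHMGA2-2. Both shHMGA2-1 libraries were above both controls, and both shHMGA2-2 libraries were at or under the floor of 3 counts. GPC4 rose 2.04-fold in shHMGA2-1 (log2 fold change 1.03 ± 0.149, adjusted p = 6.5e-06). This value sits at the 2-fold line and was 0.98 without shNC replicate 1 and 0.90 without shHMGA2-1 replicate 2, both still past the adjusted p threshold of 0.05. In shHMGA2-2, 1 count stood against 310 in shNC, a ratio of 302 after scaling for depth with a 95% counting interval from 53.8 to 11955. The test gave adjusted p = 8.62e-14, and its fitted log2 fold change of -8.03 depends on the prior count and is no bound. Against shHMGA2-1, with 668 counts, the ratio was 644 (115 to 25466, adjusted p = 8.6e-16).

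GPC6 (chr13:93226807-94408020, plus strand), another heparan sulfate glypican, showed the reverse order of lines. It had 113 and 123 counts under shNC, 42 and 67 under shHMGA2-1, and 162 and 154 under shHMGA2-2. The shHMGA2-1 libraries were lowest and the shHMGA2-2 libraries highest. GPC6 was 2.28-fold lower in shHMGA2-1 (log2 fold change -1.19 ± 0.213, adjusted p = 0.000102), or -0.88 without shHMGA2-1 replicate 1 (adjusted p = 0.00377). In shHMGA2-2 the log2 difference from shNC was 0.34 ± 0.182 (adjusted p = 0.113), and it passed only with upper quartile scaling among the scalings tried, at 0.46 (adjusted p = 0.0350). Between the knockdown lines the log2 difference was 1.53 ± 0.205 (adjusted p = 9.94e-07).

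GPC1 (chr2:240435663-240468076, plus strand), the most broadly expressed glypican, moved the least of the 3. It had 264 and 305 counts under shNC, 231 and 187 under shHMGA2-1, and 254 and 312 under shHMGA2-2. The shHMGA2-2 and shNC libraries overlapped, and the shHMGA2-1 libraries were lower. GPC1 fell by 0.52 on the log2 scale in shHMGA2-1 (SE 0.140, adjusted p = 0.00512), which did not pass without shNC replicate 2 (adjusted p = 0.109). Its log2 difference in shHMGA2-2 was -0.09 ± 0.135 (adjusted p = 0.596). The difference between the knockdown lines, 0.43 ± 0.140 (adjusted p = 0.0119), was lost with DESeq2 (adjusted p = 0.0811), without shHMGA2-1 replicate 2 (adjusted p = 0.102) and without shHMGA2-2 replicate 2 (adjusted p = 0.195).

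The 3 glypicans summed to 5.09 and 5.67 FPKM under shNC, 6.02 and 6.46 under shHMGA2-1, and 3.75 and 4.19 under shHMGA2-2. These sums lack TMM scaling too. Mean FPKM of GPC1 was 2.565 in shNC and 2.625 in shHMGA2-2, where its tested log2 difference was -0.09. GPC4 supplied 35.0% and 33.5% of the sum in shNC, 60.1% and 65.6% under shHMGA2-1, and 0% and 0.239% under shHMGA2-2. With GPC4 at the floor, GPC1 and GPC6 made up nearly the whole glypican signal in shHMGA2-2, GPC1 with 63.2% and 68.7%.

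Of the matrix members, perlecan and agrin were detected and versican and biglycan were not or barely. HSPG2 (chr1:21822244-21937310, minus strand), the large heparan sulfate proteoglycan of basement membranes, had 1602 and 1514 counts under shNC, 1822 and 1636 under shHMGA2-1, and 2242 and 2551 under shHMGA2-2. The shHMGA2-2 libraries were highest, and the other lines overlapped. HSPG2 rose 1.45-fold in shHMGA2-2 (log2 fold change 0.54 ± 0.0773, adjusted p = 1.86e-06) and differed from shNC by 0.07 ± 0.0782 in shHMGA2-1 (adjusted p = 0.531). The knockdown lines differed by 0.47 ± 0.0769 (adjusted p = 1.68e-05). LDLRAD2 overlaps HSPG2 on the other strand and had 4 to 15 counts.

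AGRN (chr1:1020120-1056118, plus strand), known for clustering acetylcholine receptors at the neuromuscular junction and also a basement membrane component, had 3572 and 3726 counts under shNC, 3349 and 2760 under shHMGA2-1, and 3659 and 4120 under shHMGA2-2. The shHMGA2-1 libraries were lowest, and shHMGA2-2 overlapped shNC. AGRN fell by 0.34 on the log2 scale in shHMGA2-1 (SE 0.0764, adjusted p = 0.00131), at adjusted p = 0.0502 without shNC replicate 2 and by 0.22 without shHMGA2-1 replicate 2 (adjusted p = 0.00833). The knockdown lines differed by 0.35 ± 0.0763 (adjusted p = 0.000501), or 0.23 without shHMGA2-1 replicate 2. Its log2 difference in shHMGA2-2 was 0.01 ± 0.0758 (adjusted p = 0.915).

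VCAN (chr5:83471618-83582303, plus strand), the large chondroitin sulfate proteoglycan of loose matrix, had 6 and 6 counts under shNC, 4 and 2 under shHMGA2-1, and 2 and 2 under shHMGA2-2. Over the line, 12 counts in shNC stood against 4 in shHMGA2-2, a ratio of 2.92 with a 95% counting interval from 0.885 to 12.4, so that no difference was detectable at this depth. BGN (chrX:153494980-153509546, plus strand), a small leucine-rich matrix proteoglycan, had 0 counts in all 6 libraries, which by the floor allows at most 0.175 to 0.182 CPM in each on the plain library totals. HAUS7 overlaps BGN on the other strand and had 40 to 61 counts, and with the strand setting unknown this limit covers only reads assigned to BGN.

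In shHMGA2-1, 6 of the 8 tested members passed the test, 1 higher and 5 lower, where 33.4% of all tested genes passed, 15.8% higher and 17.6% lower. Of the 6, GPC4 (higher) and GPC6 (lower) also changed at least 2-fold, where 8.49% of all genes did, 4.89% higher and 3.59% lower. The median log2 fold change of the 8 was -0.32, against 0.01 over all genes tested. CPM of the 2 lines did not overlap for 7 of the 8, against 64.5% of all genes. Without a library in turn, 4 to 6 members passed, the lowest count being reached without shNC replicate 2.

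In shHMGA2-2, 5 of the 8 passed, 2 higher (SDC4 and HSPG2) and 3 lower (SDC1, SDC2 and GPC4), and the background was 58.7% of all genes, 29.5% higher and 29.2% lower. At least 2-fold changes were found for 4 of the 8, 1 higher and 3 lower, against 21.3% of all genes, 11.7% higher and 9.65% lower. Of the 8, 6 did not overlap, against 79.8% of all genes. The median of the 8 was -0.04, against 0.03 over all genes. The share of members that passed, 62.5%, was near that of all genes.

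Against each other, the knockdown lines differed in all 8 tested members, 5 higher and 3 lower in shHMGA2-2, where 50.2% of all genes passed, 24.5% higher and 25.7% lower. At least 2-fold differences were found in 5 of them (SDC4, GPC6, SDC1, SDC2 and GPC4), against 15.1% of all genes, 7.83% higher and 7.27% lower. All 8 were also without overlap of the lines, against 72.6% of all genes. The comparisons with shNC share their control libraries, and in the direct contrast these enter only the estimate of spread, the scaling and the filter. When the 4 knockdown libraries were taken as 1 group against shNC, none of the 8 passed with edgeR (adjusted p from 0.309 for HSPG2 to 0.993 for GPC4), none had an unadjusted p under 0.05 (from 0.128) and none passed with DESeq2, and the background was 5.26% of all genes, 2.34% higher and 2.92% lower. None changed at least 2-fold past the test, against 3.09% of all genes, 1.72% higher and 1.37% lower, and 2 of the 8, SDC1 and SDC2, did not overlap, against 43.1% of all genes. That model counts the difference between the knockdown lines as spread. With the mean of the 2 contrasts from the model with 3 groups in its place, all 8 passed, 2 higher and 6 lower, where 49.8% of all genes passed, 23.7% higher and 26% lower. Of these, SDC2 and GPC4 were at least 2-fold lower, against 13% of all genes, 7.09% higher and 5.96% lower. GPC4, which rose in shHMGA2-1, was at -3.5 in that mean.

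**Figure D3:**
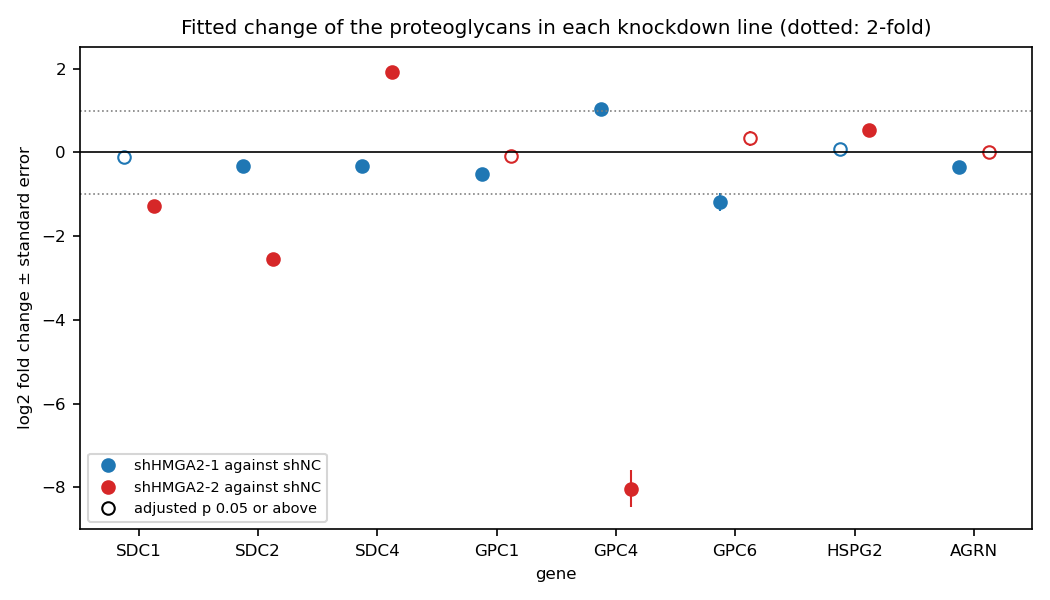
Fitted log2 fold change against shNC (y axis) of the 8 tested proteoglycan genes (x axis) in shHMGA2-1 and shHMGA2-2; bars are standard errors, many smaller than the symbol, open symbols mark adjusted p of 0.05 or above, and dotted lines mark 2-fold. SDC4 is at 1.93 and GPC4 at -8.03 in shHMGA2-2, while the same genes are at -0.31 and 1.03 in shHMGA2-1.

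The neighbourhood of GPC4 on the X chromosome was examined after its low counts in shHMGA2-2 had been seen. Within 1 Mb of GPC4 the table lists 30 genes, of which 22 had no count in any library and 4 reached 10 counts. HS6ST2 (chrX:132626015-132961395, minus strand), an enzyme that adds 6-O-sulfate to heparan sulfate, had 564 and 627 counts under shNC, 732 and 845 under shHMGA2-1, and 2 and 3 under shHMGA2-2. It was at or under the floor in the same 2 libraries as GPC4, with a ratio of shNC to shHMGA2-2 of 232 from 1191 against 5 counts (95% counting interval 99.1 to 715, adjusted p = 2.74e-18). The 5 genes listed in the 338.7 kb between them had no count in any library.

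Farther out, MBNL3, a splicing regulator, had 566 and 687 counts under shNC, 432 and 513 under shHMGA2-1, and 211 and 167 under shHMGA2-2. It fell by 1.81 on the log2 scale in shHMGA2-2 (SE 0.137, adjusted p = 3.78e-11). On the other side of GPC4, PHF6, a chromatin protein, fell by 0.47 in shHMGA2-2 (SE 0.0900, adjusted p = 8.86e-05). The glypican gene GPC3, next to GPC4, had 5 and 1 counts under shHMGA2-2 and 0 in the other 4 libraries. RAP2C-AS1, also within 1 Mb but not tested, had 8 and 9 counts under shNC and 4 and 11 under shHMGA2-2. Low levels in shHMGA2-2 were thus shared by GPC4 and HS6ST2. MBNL3 and PHF6 fell less, where 29.2% of all genes passed lower in shHMGA2-2 and 9.65% were at least 2-fold lower. Whether the DNA of this stretch was present in the line was not measured.

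Genes around some other members also moved. Within 1 Mb of SDC4, 8 of 31 tested genes were at least 2-fold higher and none at least 2-fold lower in shHMGA2-2, where 11.7% of all genes were higher, with a median log2 fold change of 0.46 against 1.93 for SDC4 itself. Around AGRN, 22 of 65 tested genes were higher and 1 was lower in shHMGA2-2, with a median of 0.65 against 0.01 for AGRN. HSPG2, with 0.54, lay near the median of its 12 tested neighbours, 0.68, of which 4 were higher and 1 lower. Around the others the genes changed at least 2-fold in shHMGA2-2 were 1 higher and 1 lower of 11 near SDC1, 1 and 1 of 6 near SDC2, 1 and 0 of 17 near GPC1, none of 3 near GPC6, 0 and 2 of 5 near VCAN, and 2 and 3 of 38 near BGN. Of all genes, 11.7% were at least 2-fold higher in shHMGA2-2 and 9.65% lower. In shHMGA2-1, 3 of 11 near SDC1 and 5 of 65 near AGRN were at least 2-fold higher. Near HSPG2 1 of 12 and near BGN 1 of 38 were higher, and near SDC4 1 was higher and 1 lower of 31. Near VCAN 2 of 5 were lower, and near SDC2, GPC1 and GPC6 none changed at least 2-fold. Of all genes, 4.89% were at least 2-fold higher in shHMGA2-1 and 3.59% lower. The part of these neighbourhoods in the member values was not tested.

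Other proteoglycan genes were read from lists of 12 surface and 16 matrix genes, and their counts stand against 33.4% of all genes passing in shHMGA2-1 (15.8% higher, 17.6% lower) and 58.7% in shHMGA2-2 (29.5% higher, 29.2% lower). Of 9 tested surface genes, 4 were higher and 3 lower in shHMGA2-1 (77.8% passed), and 3 were higher and 5 lower in shHMGA2-2 (88.9%). NRP1, a co-receptor for VEGF and semaphorins that can carry a glycosaminoglycan chain, had 17470 and 18094 counts under shNC, 4310 and 4517 under shHMGA2-1, and 483 and 430 under shHMGA2-2. It fell by 2.09 on the log2 scale in shHMGA2-1 (SE 0.0669, adjusted p = 5.08e-17) and by 5.36 in shHMGA2-2 (SE 0.0816, adjusted p = 2.58e-24), so that its levels followed the order of HMGA2 over the 3 lines. Other genes named here, such as SDC2 and CSPG4, had the same order, and its share among all genes was not counted. CSPG4, the chondroitin sulfate proteoglycan NG2, had 781 and 679 counts under shNC, 233 and 164 under shHMGA2-1, and 62 and 59 under shHMGA2-2. It fell by 1.96 in shHMGA2-1 (SE 0.133, adjusted p = 2.73e-11) and by 3.67 in shHMGA2-2 (SE 0.159, adjusted p = 8.92e-16). GPC2 was at most 14 counts in any library, with 1 count in shNC against 20 in shHMGA2-1 and 23 in shHMGA2-2.

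Of 6 tested matrix genes, 2 were higher and 1 lower in shHMGA2-1 (50% passed, against 33.4% of all genes), and 2 were higher and 2 lower in shHMGA2-2 (66.7%, against 58.7%). COL18A1, the collagen of basement membranes that carries heparan sulfate, had 1000 and 1021 counts under shNC, 2502 and 1944 under shHMGA2-1, and 2325 and 2737 under shHMGA2-2. It rose in both lines, by 1.06 ± 0.0939 (adjusted p = 2.86e-09) and 1.24 ± 0.0937 (adjusted p = 3.62e-11) on the log2 scale. SPOCK1, a secreted testican, had 0 and 5 counts under shNC, 13 and 19 under shHMGA2-1, and 214 and 182 under shHMGA2-2. Its log2 fold change in shHMGA2-2 was 6.16 ± 0.409 (adjusted p = 3.27e-12), or 10.6 without shNC replicate 2, which leaves a control with no count. In shHMGA2-1 it was 2.54 ± 0.659 (adjusted p = 0.00404), or 1.57 without shNC replicate 1, where it did not pass (adjusted p = 0.0811), and 7.0 without shNC replicate 2. ESM1 (endocan), a small secreted proteoglycan, had 79 and 70 counts under shNC, 17 and 27 under shHMGA2-1, and 2 and 0 under shHMGA2-2. It fell by 1.83 on the log2 scale in shHMGA2-1 (SE 0.334, adjusted p = 0.000128), and the ratio of shNC to shHMGA2-2 was 72.5 (95% counting interval 19.7 to 604, adjusted p = 2.21e-09).

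The enzymes that build the chains of these core proteins were read from 3 lists. Of 12 tested genes of the linker and of precursor supply, 1 was higher and 4 lower in shHMGA2-1 (41.7% passed, against 33.4% of all genes), and 3 were higher and 7 lower in shHMGA2-2 (83.3%, against 58.7%). At least 2-fold changes were found for 8.33% of the 12 in shHMGA2-1 and 25% in shHMGA2-2, against 8.49% and 21.3% of all genes. PXYLP1, a phosphatase that acts on the linker xylose, had 15 and 18 counts under shNC, 95 and 93 under shHMGA2-1, and 116 and 141 under shHMGA2-2, a rise of 2.42 ± 0.266 (adjusted p = 1.04e-07) and 2.87 ± 0.255 (adjusted p = 7.56e-10) on the log2 scale. UGDH, which makes the UDP-glucuronate used in all these chains, fell by 0.64 in shHMGA2-1 (SE 0.0956, adjusted p = 1.1e-05) and by 1.10 in shHMGA2-2 (SE 0.0981, adjusted p = 7.82e-10). PAPSS2, which makes the sulfate donor, fell by 1.17 in shHMGA2-2 (SE 0.0714, adjusted p = 7.19e-13). In shHMGA2-1 PAPSS2 did not pass (0.02 ± 0.0686, adjusted p = 0.835).

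Of 14 tested heparan sulfate genes, 2 were higher and 9 lower in shHMGA2-1 (78.6% passed, against 33.4% of all genes) and 3 were higher and 9 lower in shHMGA2-2 (85.7%, against 58.7%). Of all genes, 17.6% were lower in shHMGA2-1 and 29.2% in shHMGA2-2. At least 2-fold changes were found for 7.14% of the 14 in shHMGA2-1 and 35.7% in shHMGA2-2, against 8.49% and 21.3% of all genes. The medians of the 14 were -0.29 and -0.42, against 0.01 and 0.03 over all genes tested. Besides HS6ST2, its paralog HS6ST3 fell by 2.37 in shHMGA2-2 (SE 0.429, adjusted p = 4.45e-05), from 32 and 47 counts under shNC to 8 in each library. In shHMGA2-1 HS6ST3 did not pass (-0.52 ± 0.345, adjusted p = 0.265). HS3ST3B1, a 3-O-sulfotransferase, fell by 2.11 in shHMGA2-2 (SE 0.227, adjusted p = 1.99e-08) and by 0.98 in shHMGA2-1 (SE 0.200, adjusted p = 0.000456). HS3ST1, the 3-O-sulfotransferase of antithrombin binding sites, went in opposite directions, with 55 and 37 counts under shNC, 19 and 10 under shHMGA2-1, and 147 and 198 under shHMGA2-2. It fell by 1.74 in shHMGA2-1 (SE 0.346, adjusted p = 0.000355) and rose by 1.82 ± 0.233 in shHMGA2-2 (adjusted p = 3.32e-07). Chosen after their values were seen, HS6ST1, another paralog of HS6ST2, rose by 0.95 ± 0.103 in shHMGA2-2 (adjusted p = 2.44e-08), and EXT1, a subunit of the chain polymerase, fell by 1.02 there (SE 0.0661, adjusted p = 1.93e-12). In shHMGA2-1 HS6ST1 did not pass (0.20 ± 0.107, adjusted p = 0.164), and EXT1 fell by 0.34 (SE 0.0649, adjusted p = 0.000186). EXT2, the other subunit, rose by 0.31 ± 0.0708 in shHMGA2-2 (adjusted p = 0.000545) and by 0.26 ± 0.0709 in shHMGA2-1 (adjusted p = 0.00684).

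Of 17 tested chondroitin and dermatan sulfate genes, 3 were higher and 8 lower in shHMGA2-1 (64.7% passed, against 33.4% of all genes) and 5 were higher and 8 lower in shHMGA2-2 (76.5%, against 58.7%), with medians of -0.25 and -0.08 against 0.01 and 0.03 over all genes. At least 2-fold changes were found for 5.88% of the 17 in shHMGA2-1 and 17.6% in shHMGA2-2, against 8.49% and 21.3% of all genes. UST, a uronyl 2-O-sulfotransferase, had 284 and 266 counts under shNC, 107 and 136 under shHMGA2-1, and 87 and 85 under shHMGA2-2. It fell by 1.26 (SE 0.154, adjusted p = 6.15e-07) and 1.76 (SE 0.162, adjusted p = 1.55e-09) on the log2 scale. CHSY3, a chondroitin synthase, fell by 1.85 in shHMGA2-2 (SE 0.245, adjusted p = 5.58e-07) and by 0.69 in shHMGA2-1 (SE 0.215, adjusted p = 0.0149). Of 7 tested hyaluronan genes, 1 was higher and 2 lower in shHMGA2-1 (42.9% passed, against 33.4% of all genes), and 1 was higher and 4 lower in shHMGA2-2 (71.4%, against 58.7%). HAS2, the main hyaluronan synthase of mesenchymal cells, had 155 and 155 counts under shNC, 8 and 2 under shHMGA2-1, and 103 and 102 under shHMGA2-2. It fell by 5.00 in shHMGA2-1 (SE 0.324, adjusted p = 1.19e-11), a value that rests on 8 and 2 counts and was -6.25 without shHMGA2-1 replicate 1 and -4.35 without shHMGA2-1 replicate 2, and by 0.68 in shHMGA2-2 (SE 0.190, adjusted p = 0.00368), the latter not with DESeq2 (adjusted p = 0.0632).

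**Figure D4:**
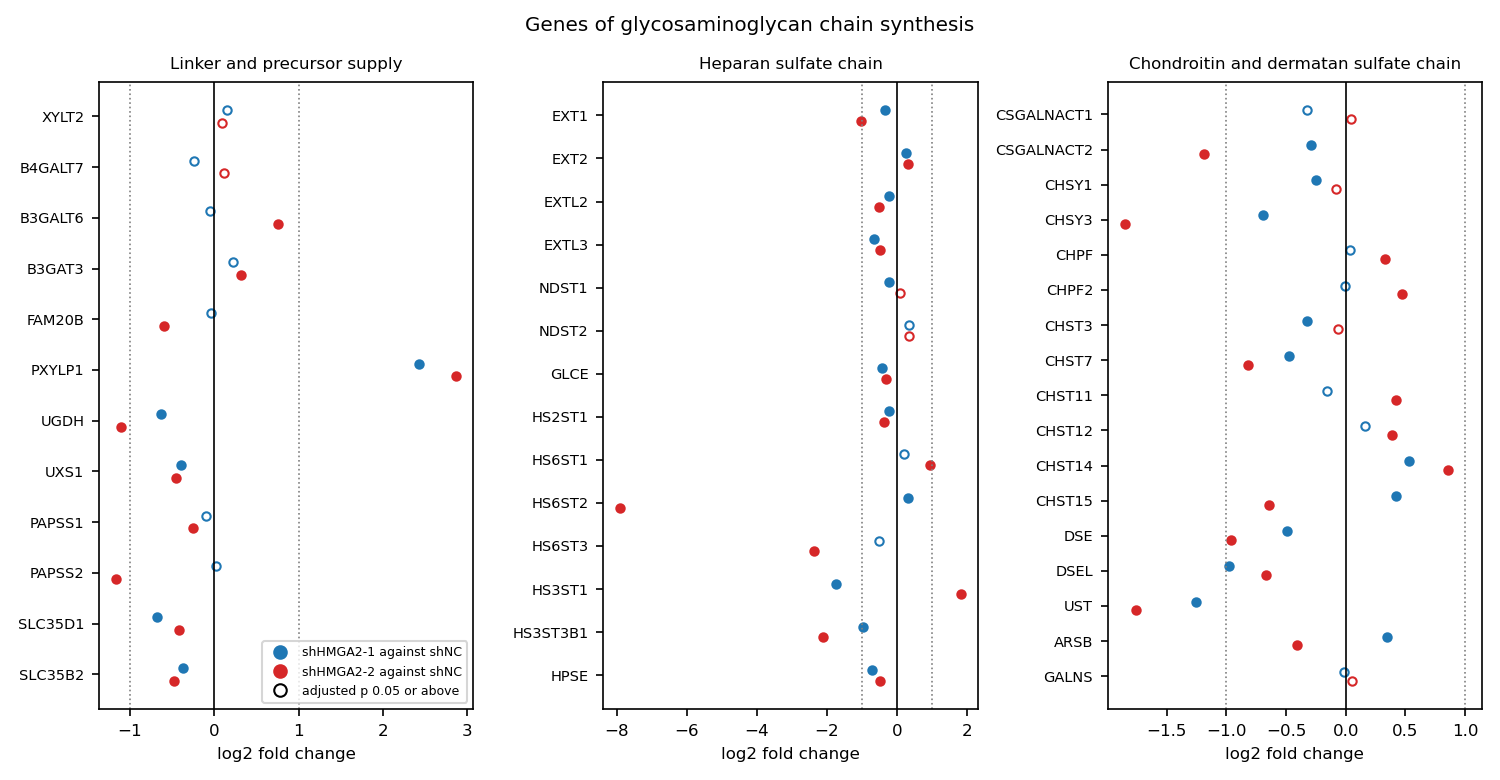
Log2 fold change against shNC (x axes, a separate scale in each panel) of the tested genes (y axis) for the linker and precursors, the heparan sulfate chain and the chondroitin and dermatan sulfate chain; colors stand for the knockdown lines, open symbols mark adjusted p of 0.05 or above, and dotted lines mark 2-fold. HS6ST2 lies at -7.91 in shHMGA2-2 and at 0.33 in shHMGA2-1, and PXYLP1 is above 2 in both lines.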

How the data were processed

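RNA of 6 MDA-MB-231 libraries was analysed, 2 each of shNC, shHMGA2-1 and shHMGA2-2. The authors deposited raw read counts and FPKM for 61806 genes, 20417 of them without a symbol. The submitters' processing notes name HISAT2 2.2.1, HTSeq 0.6.1 and GRCh38.p13. The annotation release and strand setting are not given in the sources used here, so overlapping genes may share reads. The deposited FPKM values were recomputed from the counts, exonic sizes and totals within 0.005 for 100% of values, and 0 sample columns were left unused. Positions are as deposited.

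Counts were tested with edgeR 4.0.16 in R 4.3.3 by the quasi-likelihood test, with TMM factors (0.958 to 1.05), filterByExpr by line (16110 genes tested) and Benjamini-Hochberg adjustment. An adjusted p under 0.05 counted as passed, and where stated the change also had to reach 2-fold. The model had 3 groups, or 2 groups where the knockdown libraries were joined. SE is the log2 fold change divided by the root of the F statistic. Counting intervals are exact, at 95%. Each line had 2 libraries at 16461178 to 17167293 counts, and libraries of a line differed by more than sampling noise (chi-square per degree of freedom 2.06 to 6.80), so none was taken for a second deposit of another, which does not show that they came from separate cultures. With 2 against 2, an exact permutation test cannot go below p = 0.333. The scripts were tested on simulated data. RefSeq promoters were searched for A/T runs and GGGCGG.

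The members and gene lists were chosen with earlier results of these data known. Named were all members, HMGA2 and, of each list, at most the 3 genes with the largest changes among those at least 2-fold changed in a comparison. SDC3, GPC3, HS6ST1, EXT1, EXT2 and the further neighbours of GPC4 were named outside this rule, after their values were seen, and so were marker genes beyond it. Other scalings, filters, DESeq2 1.42.0, a replicate block and leaving out each library were tried.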

Additional observations from a re-analysis of the deposited data

Results flagged for a closer look

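The direct contrast of the knockdown lines, a test of the difference in level between them, passed for all 8 tested proteoglycans by edgeR's quasi-likelihood test. As log2 differences, shHMGA2-2 minus shHMGA2-1, these were -1.18 for SDC1, -2.21 for SDC2, 2.24 for SDC4, 0.43 for GPC1, -9.06 for GPC4, 1.53 for GPC6, 0.47 for HSPG2 and 0.35 for AGRN. Of all genes tested, 50.2% differed between these lines. The GPC4 value rests on 1 count in shHMGA2-2, depends on the prior count and is no bound, and it ran from -11.35 to -8.23 with a library left out. The GPC1 difference did not pass with DESeq2 (adjusted p = 0.0811).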

How the results depend on the processing

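Over the alternatives tried, 368 of 396 single member values kept their direction and their side of the threshold, 12 reversed, 9 came to pass and 7 no longer passed. The number of members changed at least 2-fold stayed at 4 in shHMGA2-2 under every alternative, and at 5 between the knockdown lines except for 4 with a mean FPKM of at least 1. In shHMGA2-1 it was 2, fell to 1 with a mean FPKM of at least 1, where GPC6 was not tested, and ran from 1 to 2 when a library was left out (1 without shNC replicate 1, shHMGA2-1 replicate 1 or shHMGA2-1 replicate 2).

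Reversed values lay near 0 or in the joined comparison. GPC1 in shHMGA2-2 was 0.0260 with upper quartile factors, and from -0.229 to 0.0312 with a library left out (0.0191 without shNC replicate 2, 0.0312 without shHMGA2-2 replicate 1). AGRN in shHMGA2-2 was -0.0142 with no filter, -0.00569 with DESeq2, and from -0.0618 to 0.0733 with a library left out (-0.0276 without shNC replicate 1). Upper quartile factors moved the median of all genes by 0.115 in shHMGA2-2. For both lines against shNC, the mean of the 2 contrasts gave -3.5 for GPC4, 8 members past the adjusted p (49.8% of all genes were) and 2 changed at least 2-fold (13% of all genes). Leaving out a library moved GPC4 from -0.68 to 0.45 there (-0.0178 without shNC replicate 1, -0.43 without shHMGA2-1 replicate 1) and GPC6 from -0.518 to 0.0372. Outside the members, with a library left out, PAPSS2 in shHMGA2-1 ran from -0.00634 to 0.0528 (-0.000515 without shNC replicate 1), CEMIP in shHMGA2-1 from -1.18 to 1.45 and GPC2 between the knockdown lines from -0.27 to 0.91.

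Of all genes, the number changed at least 2-fold was 1367, 3432, 2432 and 498 in shHMGA2-1, shHMGA2-2, their direct contrast and both lines joined. A mean FPKM of at least 1, which tests fewer genes, gave 579, 1729, 1168 and 291. The joined comparison gave 2102 by the mean of contrasts, 1026 with DESeq2 and from 4 to 480 with a library left out. The causes were not tested.

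The differences of replicate 1 from replicate 2 correlated between lines at r = -0.0242, 0.00364 and -0.179 over 16110 genes. The last value, for shHMGA2-1 with shHMGA2-2, means that libraries of unlike number deviated together to a small degree there. Such values cannot show whether libraries shared a batch or culture, which was not tested. With the replicate as a block, 1304, 3353, 2352 and 138 genes changed at least 2-fold, and no member call changed. Crossing the shHMGA2-1 numbers, chosen after seeing the data, gave 2425 between the knockdown lines, with all 8 members past the adjusted p.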
